A study of Saccharomyces cerevisiae with 6 samples.

Results

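The genes closest to the chromosome ends of budding yeast, Saccharomyces cerevisiae, were compared between 2 strains. They are protein-coding genes that lie wholly within 20 kb of an end, chosen first by position and then by name. By position, a gene was taken if its far edge was at most 20 kb from the left end, or from the last gene listed on the right end. Of the 6416 rows of the table, 254 met this limit. The rule then left out 38 of them, which are YMR317W and members of named families such as PAU, DAN, HXT, PHO and THI, so that 216 genes on all 32 ends remained. Right ends were measured from the last listed gene, which lay 349 to 8211 bp short of the end of the chromosome in the reference genome.

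Yeast chromosomes end in short repeats made of C, A and their complements, which the telomerase enzyme maintains, followed inward by X elements and, at many ends, by Y′ elements. The protein Rap1 binds the repeats and brings in Sir2, Sir3 and Sir4, which remove acetyl groups from histones and can keep nearby genes silent. The zone behind the repeats holds gene families present in near-identical copies on several ends, such as the COS membrane proteins, the MAL sugar genes and the Y′ helicases, together with single-copy genes for the use of uncommon nutrients. The first 60 bases of the left end of chromosome I (chrI:1-60, plus strand, build R64, RefSeq) show such a repeat. Distances on left ends, but not on right ends, are counted from the outermost base of the chromosome.
Left end of chromosome I: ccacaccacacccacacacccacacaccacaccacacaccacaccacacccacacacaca

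Both strains are derivatives of BY4741, a laboratory strain of mating type a, and both express a form of the citrate synthase Cit1 without the presequence that would send it into mitochondria. The first expresses NdeltaCit1-DS/AA and the second NdeltaCit1-DS/AA-H/G. They are written DS/AA and, for the latter, DS/AA-H/G below, and which residues were replaced is not stated in the labels. Galactose was the only carbon source of the synthetic complete medium in which all cells grew, and per the series title the question was what accumulation of the presequence-less protein does to the cell. Total RNA was sequenced from 3 libraries a strain, numbered 1 to 3 for DS/AA and 4 to 6 for the other strain. Whether these were separate cultures is not stated, so p-values measure only the spread among the libraries, which may be technical. The series holds no strain without a Cit1 form, so each change below is DS/AA relative to DS/AA-H/G. The CIT1 transcript itself was 2.31-fold lower in DS/AA, so the form of the protein and its amount cannot be told apart.

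Each library held 30277443 to 32702471 estimated reads. Levels are given as scaled counts, the authors' estimated read counts brought to a common scale, as mean ± SD over the 3 libraries of a strain. Changes are differences of log2(scaled count + 1) between the strains, with the standard error (SE) of the limma fit over all 6197 genes that reached a value of 1 in 3 or more libraries. A gene was called when its Benjamini-Hochberg adjusted p over all these genes was under 0.05. The RNA is from whole cultures, so fewer cells with a transcript and less transcript per cell cannot be told apart. The 216 genes together held 1.1% to 1.2% of the signal of each library, and none of them was at 0 in every library.

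Genes near the ends were more often higher than lower in DS/AA. Of the 193 tested, 62 rose (32.1%) and 20 fell (10.4%), while among all tested genes 22.1% rose and 19.7% fell, 41.8% in either direction. The median change was 0.17 with an interquartile range of -0.08 to 0.58, against a median of 0.01 over all genes. All 3 DS/AA libraries lay above all 3 DS/AA-H/G libraries for 66 of the 193, and below them for 25, where 27.8% and 25% of all genes did so, 52.7% in either direction. Among called genes near the ends, changes of at least 1 on the log2 scale were rises in 20 cases and falls in 3, while 3.5% and 0.339% of all tested genes were called with a rise or fall of that size. Of these 20 rises and 3 falls near the ends, 11 and 2 were in genes averaging under 100 scaled counts. Genes with a near-identical copy elsewhere held 9 of the 20 rises and all 3 falls. Most called changes were under 1 on the log2 scale, and 43 of the 82 called genes changed by less than 1.5-fold. By the q-values of the authors' deposited table, 90 of the 216 genes passed 0.05, of which 70 were higher and 20 lower in DS/AA. The deposited calls and those made here shared 81 genes, all of them with the same direction.

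The balance of rises and falls depended on how the libraries were scaled. Rises made up 75.6% of the called genes near the ends and 52.8% of all called genes. With quantile normalization 43 genes rose and 43 fell, so that rises made up 50% of the calls near the ends and 36.8% of all calls. With equal column totals these shares were 84.9% and 71.1%, and with equal totals computed without CIT1 they were 79.3% and 60.9%. In each of these scalings the share of rises was larger near the ends than over all genes. The median change of all genes moved between -0.06 and 0.06 with the scaling.

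The rises were spread over the ends rather than gathered on a few. Between 3 and 11 genes lay on each of the 32 ends, and 22 ends had more rises than falls, 6 had more falls than rises and 4 had equal numbers. The median change was above 0 on 25 ends and ranged from -0.18 on the left end of chromosome IX to 1.58 on the right end of chromosome I, where levels were a few counts. The left end of chromosome XVI had 5 rises and no fall among 7 genes, and the right end of chromosome III had 5 rises and no fall among 8. The right end of chromosome VI went the other way, with 4 falls (RET2, RPN12, YFR052C-A and HXK1) and no rise among 8 genes. On the right end of chromosome IV none of the 6 genes was called.

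**Figure D1:**
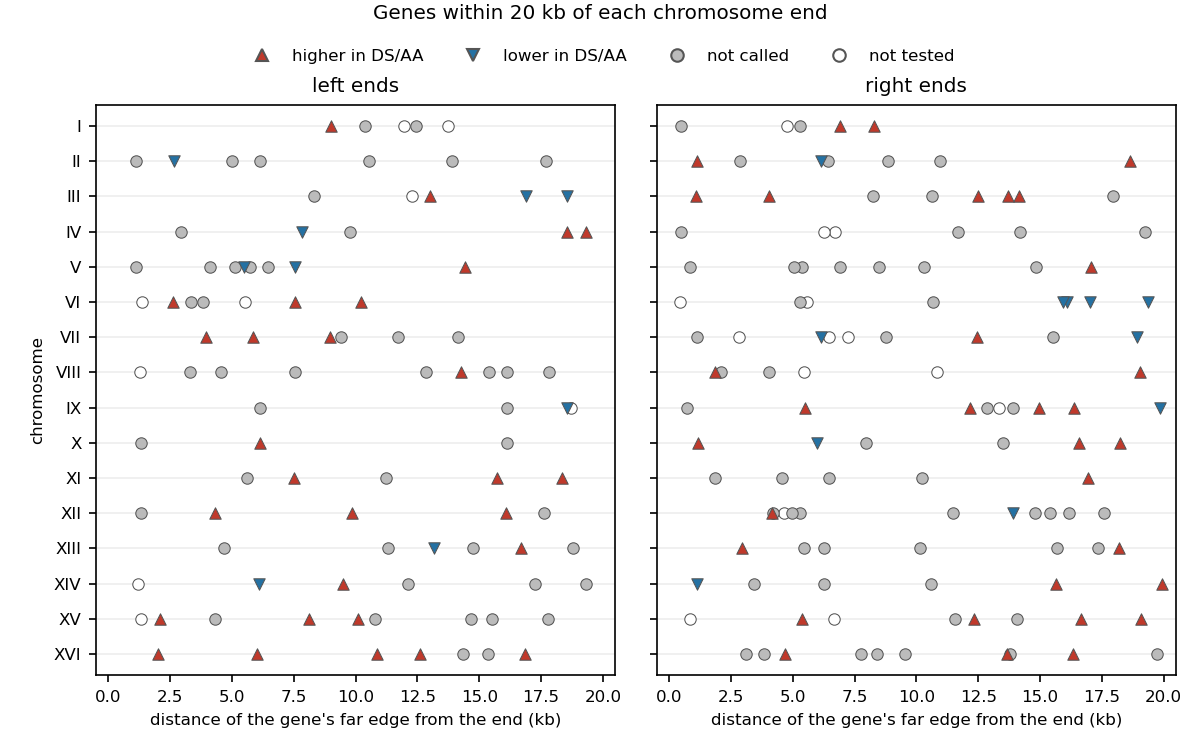
Position and call of each of the 216 genes on the left and right ends of the 16 chromosomes. The horizontal axis is the distance of the gene's far edge from the end in kb, red upward triangles are genes higher in DS/AA, blue downward triangles genes lower in DS/AA, grey circles genes not called and white circles genes not tested. Rises stand on most ends, and the 4 falls of the right end of chromosome VI stand together 15 to 20 kb from the end.

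The share of rises did not fall off at the 20 kb limit. Rises made up 31.0% of the tested genes at 0 to 5 kb, 27.5% at 5 to 10 kb, 30.6% at 10 to 15 kb and 39.2% at 15 to 20 kb. Between 20 and 30 kb the share was 36.6% of 131 genes, between 30 and 40 kb it was 25.5% of 141, and beyond 40 kb it was 20.9% of 5536. Falls made up 4.76%, 13.7%, 4.08% and 17.6% in the first 4 bands, then 12.2%, 19.9% and 20.6%. The gene just inside the limit was BSC5, 19.9 kb from its end with a change of 1.33, and the next gene outside was YMR315W, at 20.2 kb with -0.05.

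Levels rose steeply with distance over the same range. The median level per kb of gene was 116 scaled counts at 0 to 5 kb, 129 at 5 to 10 kb, 196 at 10 to 15 kb and 573 at 15 to 20 kb. It was 877 at 20 to 30 kb, 1119 at 30 to 40 kb and 1435 further in. Low genes near the ends were therefore set beside low genes elsewhere. Among genes of 100 to 1000 scaled counts, 25 of 59 near the ends rose (42.4%) and 4 fell (6.78%), while 28.7% of 1105 other genes rose and 5.97% fell. Among genes of at least 1000, 24 of 67 rose (35.8%) and 14 fell (20.9%), while 21.3% of 4068 other genes rose and 27.2% fell. Under 100 scaled counts 13 of 67 rose and 2 fell, and 9.45% of 635 other genes rose and 1.57% fell. At each level the share of rises was larger near the ends; whether it differs beyond chance was not tested.

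**Figure D2:**
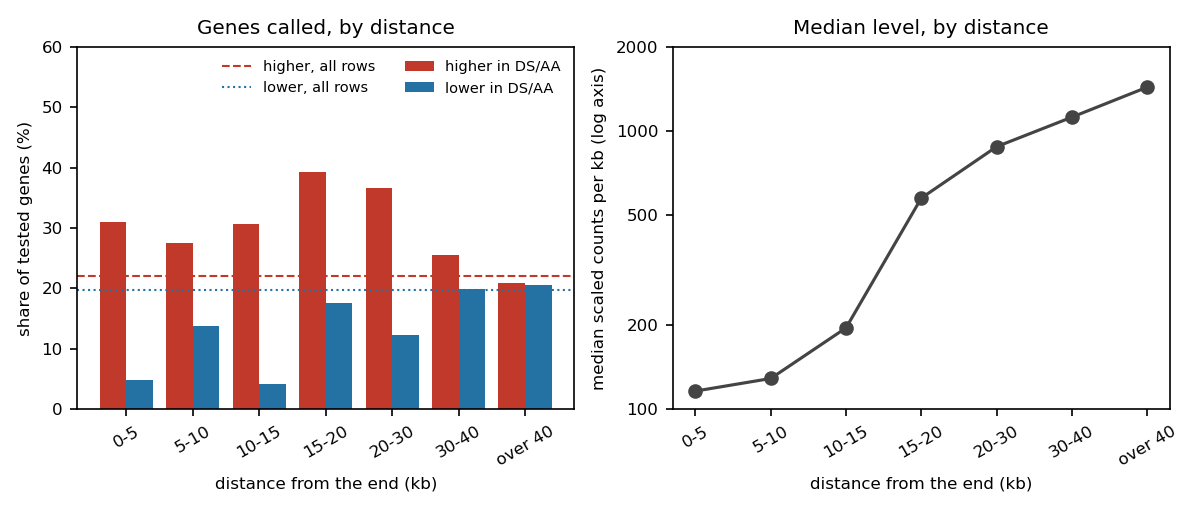
Left, share of tested genes higher (red) and lower (blue) in DS/AA by distance from the chromosome end in kb, with the shares over all genes as dashed and dotted lines (22.1% and 19.7%). Right, median level per kb of gene in the same bands on a log axis, which rises from 116 scaled counts at 0 to 5 kb to 1435 beyond 40 kb.

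Calls were also counted over neighbouring genes. Of 130 pairs of adjacent tested genes near the ends, both genes rose in 16 (12.3%), both fell in 4 (3.08%) and they moved in opposite directions in 4. Among 5559 pairs elsewhere both rose in 5.52%, both fell in 4.53% and 428 moved in opposite directions. Single genes near the ends also rose more often than elsewhere, so the larger share of joint rises is no measure of a link between neighbours. The pairs that rose included YJR154W with AAD10 on chromosome X, BSC5 with PDR18 on chromosome XIV, GTT1 with YPS6 and LYS1 with YIR035C on chromosome IX, and ERR2 with HSP32 on chromosome XVI.

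Y′ elements are blocks that carry a reading frame for a helicase of the RecQ-like superfamily, and rows of the table that cover it stand on 15 of the 32 ends. These 29 rows share stretches of at least 100 bases at 95% identity or more, so estimated counts can move between them and single rows are uncertain. Their sum was 135018, 141851 and 133092 scaled counts in the DS/AA libraries against 111992, 117719 and 121585 in those of DS/AA-H/G. The 2 sets did not overlap, and the sum rose by 0.22 ± 0.04 on the log2 scale (1.17-fold, limma adjusted p = 3.63e-04). It made up 38.1% to 38.7% of all signal near the ends in DS/AA, against 32.1% to 33.1% in the other strain. Across the alternative scalings and with each library left out in turn the change of the sum stayed between 0.14 and 0.28 and was called each time.

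The rows behind this sum did not move together. Of 28 tested, 9 rose, 2 fell and 17 were not called, with changes from -1.06 to 1.54. The shares over all tested genes were 22.1% for rises and 19.7% for falls. YRF1-4, on the right end of chromosome XII, was the largest row and one of the 5 highest genes per length near the ends at 6733 scaled counts per kb. Its level was 32391, 32421 and 32921 in DS/AA against 22788, 23348 and 23752 in DS/AA-H/G, a rise of 0.48 ± 0.03 (adjusted p = 1.34e-07). YRF1-8, with 24196 ± 1291 against 16694 ± 1242, rose by 0.54. YRF1-6 fell from 8716 ± 558 to 7236 ± 415, a change of -0.27, although the libraries of both strains stood close, with 7152, 7686 and 6868 against 8074, 9084 and 8991. YRF1-6 shares its length with other ends, and the part of shared reads in its opposite direction was not tested.

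COS genes encode membrane proteins that help to sort other membrane proteins into the vacuole for breakdown, and all 10 in the table lie near the ends. Of these 6 rose, 1 fell and 3 were not called, where 22.1% of all tested genes rose and 19.7% fell. COS12, on the left end of chromosome VII at chrVII:2790-3932 (plus strand), has no near-identical copy. Its level was 309, 255 and 214 scaled counts in DS/AA against 97.9, 113 and 95.4 in DS/AA-H/G. The strains did not overlap, and it rose by 1.33 ± 0.15 (2.54-fold, adjusted p = 1.75e-05). COS1, COS2 and COS4 share near-identical stretches, and their sum rose by 0.27 ± 0.05, from 7275 ± 229 to 8800.1 ± 643. Most of that sum was counted on COS2, which rose by 0.15 ± 0.05, from 5489 ± 142 to 6087 ± 380. Within the same sum COS1 rose by 0.59 ± 0.07 and COS4, at 27.7 ± 11.1 against 8.72 ± 1.74, by 1.498 ± 0.35. COS10 was the exception, falling by 0.26 ± 0.08 from 671 ± 49.5 to 561 ± 41.2. Its call was lost with equal column totals, without the variance trend, without DS/AA replicate 3 and without DS/AA-H/G replicate 4.

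Among called genes near the ends that averaged at least 50 scaled counts and did not overlap between the strains, SEO1, YJR154W and AAD10 rose most. SEO1, a permease of the allantoate transporter family linked to sulfur compound resistance, came first. Its level was 953, 726 and 598 in the DS/AA libraries against 205, 191 and 235 in those of DS/AA-H/G, which did not overlap, a rise of 1.83 ± 0.15 (3.61-fold, adjusted p = 7.03e-06). YJR154W, a gene of unknown function on the right end of chromosome X, had 1389.5, 1166 and 1117 against 376, 378 and 401 and rose by 1.66 ± 0.08 (adjusted p = 2.01e-08). Its neighbour AAD10, which encodes a putative aryl-alcohol dehydrogenase, had 1452, 1263 and 1158 against 445, 473 and 506 and rose by 1.44 ± 0.08 (adjusted p = 9.32e-08). That the strains do not overlap in these genes follows from the way they were chosen.

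LYS1, which encodes saccharopine dehydrogenase, the last enzyme of lysine synthesis, is among the better expressed genes of this set. It had 4447, 3608 and 3839 scaled counts in DS/AA against 1529, 1567 and 1578 in DS/AA-H/G, and rose by 1.34 ± 0.07 (2.54-fold, adjusted p = 4.12e-08). SRY1, a dehydratase of 3-hydroxyaspartate, rose from 1352 ± 71.4 to 2924 ± 408, a change of 1.10 ± 0.09. BSC5, a protein related to the ubiquitin ligase adaptor Bul1, rose from 395 ± 50.7 to 991 ± 74.3, a change of 1.33 ± 0.10. These 3 genes were also named from those without overlap between the strains, so the lack of overlap is no further result.

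The 250 bases before the start codon are shown for SEO1 and YJR154W, which rose most within the limits given above, for LYS1, whose window held the most matches of the 4 shown, and for YEL073C, which within the same limits fell most of the genes with no near-identical copy. They were read from build R64 (RefSeq genome) and are written 5′ to 3′ on the gene's strand. Capitals mark matches on either strand to CACGTG (Cbf1), TGTGGC (Met31 and Met32), TGACTC (Gcn4), AGGGG (the stress response element), TCCNNNGGA (Lys14) or CATGTG (the core of an inositol-sensitive element). The last 2 motifs were added after the values and sequences were seen.
SEO1, chrI:9017-9266, minus strand: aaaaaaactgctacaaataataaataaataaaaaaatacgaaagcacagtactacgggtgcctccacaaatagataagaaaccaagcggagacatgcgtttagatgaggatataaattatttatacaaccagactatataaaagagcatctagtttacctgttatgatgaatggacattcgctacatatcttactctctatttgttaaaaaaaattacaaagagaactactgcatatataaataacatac
YJR154W, chrX:725534-725783, plus strand: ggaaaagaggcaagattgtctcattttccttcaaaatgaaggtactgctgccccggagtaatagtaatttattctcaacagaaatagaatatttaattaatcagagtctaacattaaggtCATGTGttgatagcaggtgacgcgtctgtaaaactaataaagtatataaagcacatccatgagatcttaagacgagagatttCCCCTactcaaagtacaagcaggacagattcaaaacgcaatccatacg
LYS1, chrIX:420737-420986, minus strand: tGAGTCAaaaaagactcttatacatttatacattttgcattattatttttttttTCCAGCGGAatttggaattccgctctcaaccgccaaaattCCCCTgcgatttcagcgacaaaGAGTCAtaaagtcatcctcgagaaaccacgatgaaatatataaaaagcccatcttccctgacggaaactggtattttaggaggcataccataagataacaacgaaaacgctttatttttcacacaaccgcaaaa
YEL073C, chrV:7554-7803, minus strand: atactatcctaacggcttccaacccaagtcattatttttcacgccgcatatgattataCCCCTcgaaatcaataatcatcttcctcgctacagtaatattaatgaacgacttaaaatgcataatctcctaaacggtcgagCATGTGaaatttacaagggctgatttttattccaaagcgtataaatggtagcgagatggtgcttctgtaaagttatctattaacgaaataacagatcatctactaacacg

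The SEO1 window held no match to these motifs. Nor did the windows of AAD10 and BSC5, among the largest rises, and of CHA1 and BIO2, among the largest falls, which are not printed. The YJR154W window held 1 stress response element and 1 CATGTG, and the LYS1 window held 2 Gcn4 motifs, 1 Lys14 motif and 1 stress response element, none of them overlapping. The YEL073C window held 1 stress response element and 1 CATGTG. Over the 6316 windows of all protein-coding nuclear genes the stress response element was found in 18.8%, TGACTC in 6.44%, TGTGGC in 6.49%, CATGTG in 5.81%, TCCNNNGGA in 2.77% and CACGTG in 2.75%. Among the 62 genes near the ends that rose, the windows of 15 held the stress response element, 4 TGTGGC, 2 TGACTC, 2 CATGTG, 2 TCCNNNGGA and 1 CACGTG. Among the 20 that fell these numbers were 2, 3, 0, 1, 1 and 0. A match is a stretch of letters and no evidence that a factor binds there.

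The 5 aryl-alcohol dehydrogenase genes near the ends gave 4 rises and no fall, beside 22.1% and 19.7% of all tested genes. Beside AAD10, AAD4 rose by 0.20 and the near-identical pair AAD3 and AAD15 by 0.26 ± 0.05 as a sum, which was not called with quantile normalization (adjusted p = 0.0526, the largest over the alternatives). FDH1, a formate dehydrogenase, had 375, 546 and 466 scaled counts in DS/AA against 211, 247 and 188 in DS/AA-H/G, and together with its copies FDH2 and YPL276W it rose by 1.09 ± 0.13. The enolase-related genes ERR2 and ERR3 rose by 0.77 ± 0.10 as a sum, from 240.1 ± 10.3 to 413 ± 52.2. HSP32 and HSP33, which belong to the Hsp31 family of chaperone and glyoxalase proteins, rose by 1.54 ± 0.16. That change is of their sum with SNO4, a copy whose name the rule left out, and the sum was 166, 184 and 177 in DS/AA against 48.0, 68.1 and 65.0 in DS/AA-H/G, with no overlap. DDI2 and DDI3, near-identical genes for cyanamide hydratase named here after their values were seen, rose by 1.11 ± 0.26 as a sum, from 16.2 ± 3.73 to 35.6 ± 4.85.

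**Figure D3:**
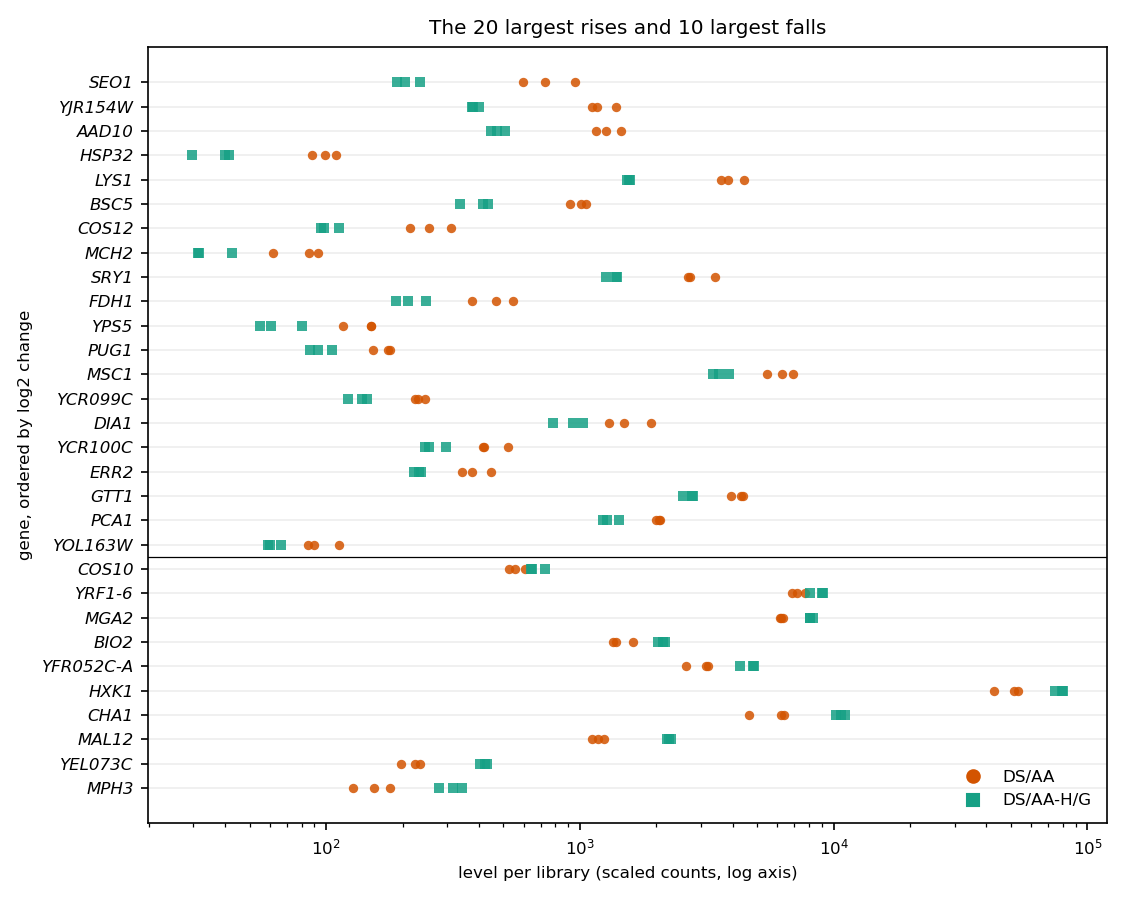
Level in each library, in scaled counts on a log axis, of the 20 genes with the largest rises and the 10 with the largest falls among genes that were called, averaged at least 50 and did not overlap between strains. Circles are DS/AA libraries and squares DS/AA-H/G libraries, ordered by log2 change, from SEO1 at 1.83 to MPH3 at -1.03.

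Several genes for transport proteins, and a gene named after a protease, also rose. MCH2, related to monocarboxylate permeases, rose by 1.16 ± 0.22 and PUG1, a plasma membrane protein for porphyrin and heme, by 0.83 ± 0.13. PCA1, a P-type ATPase, had 1996, 2068 and 2048 in DS/AA against 1237, 1285 and 1422 in DS/AA-H/G and rose by 0.63 ± 0.05. SGE1, a multidrug transporter, rose by 0.33 ± 0.06. YPS5, named after the yapsin proteases, rose by 1.09 ± 0.18 at 139 ± 19.9 against 65.4 ± 13.5 scaled counts. YOL163W, of the Dal5 transporter family, rose by 0.61 ± 0.17 from 61.8 ± 4.14 to 95.6 ± 15.2, a call that quantile normalization ended.

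Further rises were seen in genes of other or unknown roles. GTT1, a glutathione transferase of the endoplasmic reticulum, rose from 2696 ± 129 to 4209.8 ± 234, a change of 0.64 ± 0.05. MSC1, a gene of unknown function, rose from 3579.9 ± 269 to 6215 ± 719, a change of 0.79 ± 0.09. DIA1, linked to invasive growth, had 1304, 1912 and 1489.7 against 782, 935 and 1026 and rose by 0.77 ± 0.16, and it overlaps YMR316C-A on the opposite strand. The neighbours YCR099C and YCR100C on the right end of chromosome III, of unknown function, rose by 0.79 and 0.76. They overlap each other by 29 bases on the same strand, so a small share of their reads is common to both. FLO10, a flocculin of the cell wall, rose by 0.21 ± 0.06, a call lost with quantile normalization and without DS/AA replicate 3, DS/AA-H/G replicate 4 or DS/AA-H/G replicate 6.

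Genes for maltose use were among the largest falls. Of the 10 genes near the ends on the maltose and isomaltose list, 5 fell and 1 rose. Over all tested genes 19.7% fell and 22.1% rose. The 5 falls were MAL12, MAL32, MPH2, MPH3 and IMA3, all of which have a near-identical copy. They are therefore not 5 separate results, and sums over the copies are given below. The maltases MAL12 and MAL32, which split maltose into glucose, share 1755 bases at 99.5% identity. Their sum was 2246, 2380.4 and 2395 scaled counts in DS/AA against 3541, 3630.4 and 3643 in DS/AA-H/G. These did not overlap, and the sum fell by 0.62 ± 0.04 on the log2 scale (1.54-fold lower, adjusted p = 1.36e-07). The fitted falls of the single rows were 0.93 for MAL12 and 0.23 for MAL32, between which reads can be divided either way. The alpha-glucoside permeases MPH2 and MPH3 are also near-identical, and their sum fell by 1.09 ± 0.12, from 333 ± 35.1 to 156 ± 21.9. Nearly all of it was counted on MPH3, with 179, 154 and 128 in DS/AA against 315, 344 and 279 in DS/AA-H/G. MPH2 alone was at 0, 0 and 7.61 against 5.58, 29.2 and 27.5, and its call was lost in 5 of 14 alternatives. The isomaltase IMA3 fell by 0.18 ± 0.07, but its 1770 bases stand at 100% identity on chromosome X. It is also near-identical to IMA2, which lies outside the 20 kb limit. The sum of IMA2 and IMA3 changed by -0.15 ± 0.07 and was not called (limma adjusted p = 0.0897), and the strains overlapped.

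Other genes of the maltose clusters did not follow. MAL31 and MAL11, the maltose permeases, changed by 0.00 ± 0.06 and 0.05 ± 0.06, and neither was called. MAL33, an activator gene by family, changed by -0.10 ± 0.04 and was not called. MAL13, the activator gene of the cluster that holds MAL12, rose from 493 ± 35.2 to 715 ± 96.6, a change of 0.53 ± 0.10 (adjusted p = 0.00104). Whether MAL13 or MAL33 works as an activator in these strains was not tested.

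**Figure D4:**
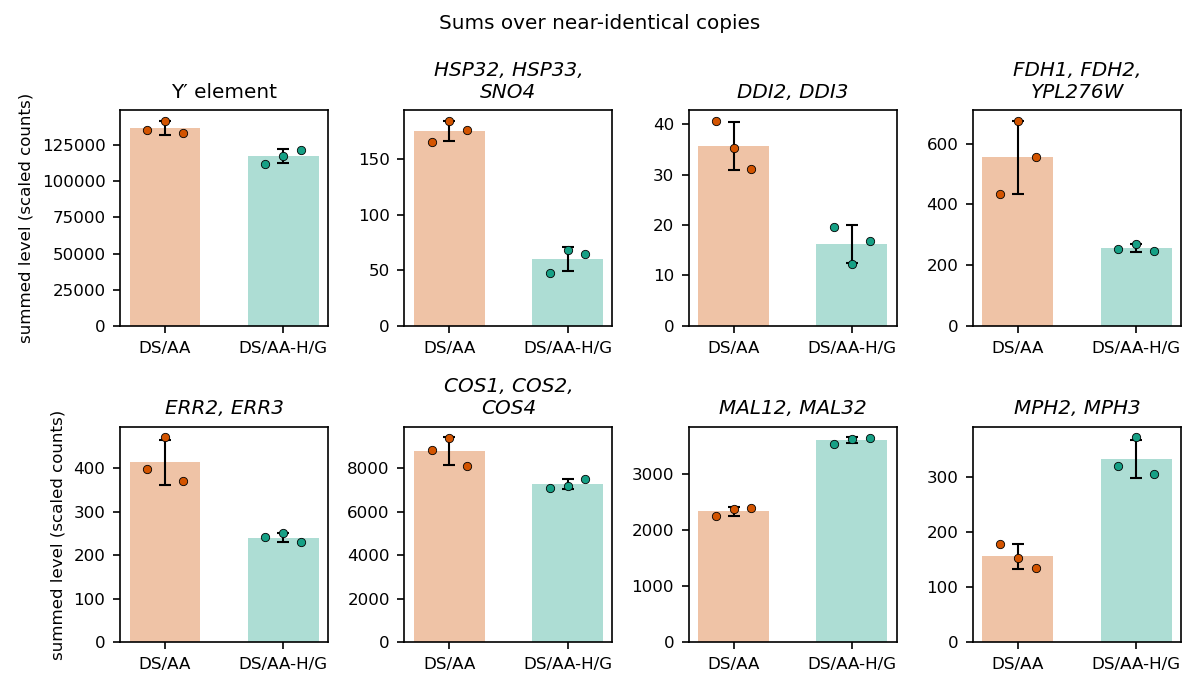
Summed level of near-identical gene copies in scaled counts, with bars at the mean of each strain, error bars of 1 SD and a point for each of the 3 libraries. The first 6 sums are higher in DS/AA and the MAL12 and MAL32 sum and the MPH2 and MPH3 sum are lower, with no overlap between the strains in any of the 8.

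Of the 5 genes with the highest level per length near the ends 4 fell and YRF1-4 rose, while 19.7% of all tested genes fell. HXK1, which encodes a hexokinase and was the highest gene per length at 43622 scaled counts per kb, had 42814, 53245 and 51574 in DS/AA against 74422, 79123 and 80427 in DS/AA-H/G. It fell by 0.67 ± 0.08 (1.58-fold lower, adjusted p = 4.34e-04). YFR052C-A, the second highest, fell by 0.64 ± 0.08, but it overlaps HXK1 by 143 bases on the same strand, so part of its reads may be those of HXK1. CHA1, a serine and threonine deaminase, had 4640.4, 6379 and 6224 against 10255, 10706 and 11092 and fell by 0.91 ± 0.13 (adjusted p = 0.00193). RET2, a subunit of the COPI coat of vesicles, had 10361 ± 199 against 11412 ± 123 and fell by 0.14 ± 0.03, a call lost with equal column totals. In HXK1, CHA1 and RET2 the strains did not overlap.

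Further falls were seen in single genes of varied function. YEL073C, a gene of unknown function whose promoter window is printed above, had 224, 235 and 197 in DS/AA against 431, 423 and 405 in DS/AA-H/G. It fell by 0.94 ± 0.09 (1.92-fold lower, adjusted p = 7.64e-06). BIO2, biotin synthase, the last enzyme of biotin synthesis, fell from 2111 ± 66.3 to 1455 ± 142, by 0.54 ± 0.06. BIO3 and BIO4, which act earlier in that pathway and lie outside the 20 kb limit, rose by 1.07 ± 0.07 and 1.21 ± 0.10. MGA2, an activator of the fatty acid desaturase gene OLE1, fell from 8141 ± 118 to 6202 ± 80.2, by 0.39 ± 0.03. Smaller falls outside the naming rule, listed after their values were seen, were those of ERO1, VAC17, GAB1 and RPN12, between 0.10 and 0.17.

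Several families near the ends gave few calls or none. None of the 3 arsenic resistance genes was called: ARR1 changed by 0.03 ± 0.05, ARR2 by 0.34 ± 0.22 and ARR3 by -0.01 ± 0.19. Neither were the sorting receptors VTH1 and VTH2, at -0.03 ± 0.06 and 0.04 ± 0.09, nor their sum at 0.01 ± 0.04. The ferric reductase FRE2 changed by -0.05 ± 0.08 and the glutathione exchanger GEX2 by 0.17 ± 0.11. The sorbitol dehydrogenases SOR1 and SOR2 were not called singly, at -0.13 ± 0.10 and -0.28 ± 0.13. Their sum fell by 0.21 ± 0.07 (adjusted p = 0.0341), a call lost with equal column totals, with and without CIT1, and without DS/AA replicate 1, DS/AA replicate 3, DS/AA-H/G replicate 5 or DS/AA-H/G replicate 6. On the sulfur list, SEO1 and BDS1 were the 2 rises among 4 genes near the ends. BDS1, an alkylsulfatase, rose by 0.23 ± 0.06, a call lost with quantile normalization and without DS/AA-H/G replicate 5, and MHT1 and IRC7 changed by 0.05 ± 0.08 and -0.05 ± 0.07. On the same list JLP1, which lies elsewhere, rose by 1.56 ± 0.14. In all 6 of the 8 genes on the list rose and none fell, beside 22.1% and 19.7% of all tested genes.

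The silent mating cassette HML lies 13.0 kb from the left end of chromosome III and is kept off by the same Sir proteins. Its HMLALPHA2 row had 1899 ± 75.3 scaled counts in DS/AA against 1710.4 ± 50.4 in DS/AA-H/G and rose by 0.15 ± 0.05 (adjusted p = 0.0200). All or most of its 633 bases stand at 2 other places on chromosome III of the reference, so reads on this row do not show which locus was transcribed, and the call was lost with quantile normalization and without DS/AA replicate 2 or DS/AA-H/G replicate 5. The sum of HMLALPHA2 and its near-identical partner HMRA2 rose by 0.18 ± 0.04 (adjusted p = 0.00556) and was called in each alternative run for it, with a highest adjusted p of 0.0386. HMRA1, of the other cassette, rose by 0.14 ± 0.05, at 1327 ± 54.2 against 1205 ± 12.6 scaled counts. Whether its reads came from that cassette or from another mating-type locus was not tested. Of 7 a-specific genes, which a cells use for mating, 5 fell and none rose, where 19.7% and 22.1% of all tested genes did. STE2, the alpha-factor receptor, was at 11209.9 ± 408 in DS/AA against 17212 ± 229 in DS/AA-H/G. Of 4 alpha-specific genes 2 rose, STE3, the a-factor receptor, from 402, 398 and 375 to 484, 525 and 451 and SAG1 from 1295 ± 72.8 to 1543 ± 28.9. STE2 stood far above STE3 in every library, but the 2 lists as a whole did not divide by level. In DS/AA the alpha-specific SAG1 stood above the means of the a-specific AGA2 (127), ASG7 (266), MFA1 (2.33) and MFA2 (6.61). The a-specific BAR1 (5714) and STE6 (11094) stood above SAG1, as STE2 did. Cells of mating type a are known to express STE2 and to keep STE3 off, yet reads were counted on STE3 in every library.

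Of 42 silencing and telomere chromatin factors, 6 rose and 9 fell, with a median change of -0.03, where 22.1% and 19.7% of all tested genes rose and fell. SIR1 rose by 0.38 ± 0.05 and SIR3 by 0.12 ± 0.04, SIR2 fell by 0.21 ± 0.06, and SIR4 changed by 0.01 ± 0.03 without a call. The largest fall on the list was that of SET2, a histone H3 methyltransferase, at -0.33 ± 0.04. RAP1, which binds the telomere repeats, changed by -0.05 ± 0.04 and was not called. RPD3, a histone deacetylase that itself lies near an end, changed by -0.09 ± 0.04 and was not called. The part of these factors in the rises near the ends was not tested.

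Near-identical copies touch many of the counts above. Of the 216 genes, 98 share at least 100 bases at 95% identity or more with another place in the genome, against 265 of all rows. Among the tested genes with such a copy 29 of 84 rose (34.5%) and 8 fell (9.52%). Among those without one 33 of 109 rose (30.3%) and 12 fell (11.0%), where 22.1% and 19.7% of all tested genes did. When copies were summed into single values, 14 of 29 tested sums of at least 2 rows rose and 4 fell. Of all genes and sums in that fit 22.2% and 19.7% did. Some sums hold rows outside the 216 genes, so these counts are not of genes near the ends alone. The sum of IMD1, IMD2 and YAR075W changed by -0.71, but YAR075W, the only one of them among the 216, by 1.21 without a call. The sum of BUD5 and YCL068C rose by 0.16, while YCL068C, the one near an end, was too low to be tested. A further 10 genes have their copy at a place not analysed here.

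Of the 216 genes, 23 were too low to be tested. The highest single value among them was 39.1 scaled counts, for YOR396C-A in DS/AA replicate 3, which was at 0 in the other 5 libraries. This gene lies opposite YRF1-8 over 483 bases. YAR066W, one of the genes called, had 16.8, 10.1 and 7.61 in DS/AA, against 0 in all 3 libraries of the other strain, so no fold is given, and it shares a near-identical stretch with YHR214W. Among genes without a name 22 of 90 tested rose (24.4%) and 4 fell (4.44%). Among the named ones 40 of 103 rose (38.8%) and 16 fell (15.5%). Over all tested genes the shares were 22.1% and 19.7%, so the share of rises among genes without a name was close to that of all genes.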

How the data were processed

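Per the labels' protocols, an RNeasy kit gave total RNA and the NEBNext Ultra II Directional kit, which keeps strand information, gave the libraries. Per the submitters' processing notes, the tools were R 3.5.1, Salmon 1.2.1, cutadapt 1.18 and bcl2fastq 2 on build R64, with order, options and strand handling not given in the sources used here. Deposited values are a signal per gene and library that the authors made from estimated counts divided by 1 factor per library, as read from the values. Multiples of a step of 0.940 to 1.05 made up 35.4% to 43.2% of the values above 0 within 0.01, so no count model was used. Dividing totals by the step gave the estimated reads. Near the floor of a few reads, depth limits the precision. The authors also deposited a log2 ratio, a p-value and q-value from a test that no source used here names, and a rank as a score.

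Sample titles gave groups and replicate numbers. Genes reaching a value of 1 in 3 or more of 6 libraries were fitted as log2(value + 1), a scale that understates changes of low genes, with limma 3.58.1 in R 4.3.3 (trend and robust moderation). P-values were adjusted by Benjamini-Hochberg over all tested genes. The script was tested on simulated data. Protein-coding spans of the table opened with ATG and closed with a stop codon in 99.94% of cases in the RefSeq genome of R64. They were searched against it with BLAST+ 2.17.0 for stretches of at least 100 bases at 95% identity. Of all rows 5811 matched the RefSeq table by locus tag, 177 of them among the 216 genes, and 145 of 154 names on the 19 gene lists were found.

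Named genes were the 20 largest rises and 10 largest falls among genes that were called, averaged at least 50 and did not overlap, the 5 highest per kb, up to 3 per list, HMLALPHA2 and the genes at the 20 kb limit. The genes and lists were chosen with earlier results of these data known. Other alternatives changed the pseudocount, filter, scaling, variance trend, distance limit, families left out, treatment of copies and the replicates used. YRF1-1, YRF1-3, YRF1-5, COS3, IMA4, ERR1, AAD16, VBA3 and HMLALPHA1 were not analysed here.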

Additional observations from a re-analysis of the deposited data

How the results depend on the processing

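The median change near the ends was above 0 in every alternative run, and rises outnumbered falls in all but quantile normalization, which gave 43 of each. Rises and falls stayed within 1.5 times of 62 and 20 with a pseudocount of 0.5 or 5, no filter, a mean of at least 10, no variance trend, the families put back, or copies summed. With quantile normalization the median change was 0.034, and equal column totals gave 13 falls and a median of 0.22. With each library left out in turn, rises numbered 47 to 63, falls 14 to 18, the median was 0.12 to 0.20 and the calls over all genes 2009 to 2576. A limit of 10 kb gave 27 rises and 9 falls and one of 30 kb gave 110 and 36, counted in the same fit over fewer and more genes. Leaving out genes with near-identical copies gave 33 rises, 12 falls and a median of 0.13. The other causes were not tested.

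Of the values for single named genes, 772 held their direction and side of the threshold, 21 lost a call, 5 gained one and 24 changed sign. Gains were SOR1 (-0.43), SOR2 (-0.56), FRE2 (-0.33) and RPD3 (-0.10) with quantile normalization and SOR2 (-0.43) without DS/AA-H/G replicate 4. The sign changed only in uncalled genes. With quantile normalization these were ARR1 (-0.051), ARR2 (-0.020), GEX2 (-0.12), MHT1 (-0.12) and VTH2 (-0.013). With equal totals they were ARR3 (0.048), FRE2 (0.0073), MAN2 (0.031), VTH1 (0.024) and YMR315W (0.0030), and without CIT1 in the totals ARR3 (0.017) and MAN2 (0.00043). With each library left out in turn, the values ran from -0.016 to 0.075 for ARR1, -0.15 to 0.13 for ARR3, -0.16 to 0.11 for MAN2, -0.023 to 0.12 for MHT1, -0.12 to 0.52 for VBA5, -0.094 to 0.041 for VTH1 and -0.026 to 0.13 for VTH2.

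Sums over copies were added after seeing the data. COS5 and COS7 as a sum rose by 0.19 and lost the call with quantile normalization and without DS/AA replicate 2, DS/AA-H/G replicate 4 or DS/AA-H/G replicate 5. No paired analysis was possible because the groups share no replicate number.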
